A study of Mus musculus with 4 samples.

Results

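Genes of chromatin modifiers and remodellers were examined in fibroblasts, cells that lay down connective tissue, taken fresh from lungs of 4 week old BALB/c mice of wild-type genotype. The members are the listed genes whose symbol starts with Chd, Brd, Kmt, Kdm, Setd, Arid, Hdac, Ncor, Baz, Phf or Tet and a digit, or with Smarc, together with any listed gene called Ash1l, Nsd1, Ep300, Crebbp, Atrx, Ezh1 or Ezh2. This gave 55 of the 2979 genes in the deposited table, of which 12 are writers, 15 erasers, 7 readers, 19 remodellers and 2 outside these 4 roles. RNA sequencing was done on 2 libraries of control cells and 2 libraries of cells exposed for 3 hours to a mixture of recombinant human CXCL1 (8 nM), CXCL2 (2 nM) and CXCL8 (20 nM), chemokines that attract neutrophils. The controls are labelled only as control. Libraries are called control 1, control 2, chemokine 1 and chemokine 2 by their labelled numbers. The labels do not say whether the libraries of a group came from separate cultures or animals, so p-values measure only the spread between these libraries, which may be technical.

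Histones package DNA, and their chemical marks help set which genes are transcribed. Writers add methyl or acetyl groups to histone tails, erasers take them off or, in the Tet family, oxidise methylated DNA, and readers bind marked histones through bromodomains or PHD fingers. Remodellers use ATP to slide, evict or exchange nucleosomes. In fibroblasts, BET bromodomain readers and histone deacetylases are known for their part in activation to matrix-producing myofibroblasts.

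Of the 55 members, 52 fell and 3 rose after chemokine exposure, at an adjusted p below 0.05. The test was limma's moderated test on log2(RPKM + 1), where RPKM is reads per kilobase of exon scaled to library size. The members that fell included both histone acetyltransferases of the p300 family, all of Kmt2a to Kmt2d, the nuclear receptor corepressor gene Ncor1 and every Chd gene on the list, and those that rose were Smarcd3, Phf23 and Phf5a. The median log2 fold change over the 55 members was -0.38, against -0.23 over the 2956 genes tested. The ratio of mean RPKM, chemokine over control, ran from 0.465 for Arid5b to 1.3 for Phf5a, with a median of 0.739 over the members and 0.841 over all listed genes.

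These counts carry a limit from the table itself. In all 2979 listed genes the values of the groups do not overlap (100%), and all tested genes passed limma's test (100%), 57.2% lower and 42.8% higher, because the authors deposited a selected list. Passing the test is therefore no result about the members, and what can be read is the direction and the size. Chromatin genes outside the table were not analysed here, and in bulk RNA fewer cells of a type and less RNA per cell cannot be told apart.

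At a fold of at least 1.2, tested with limma's treat in the same fit, 17 of the 55 members fell and 0 rose, against 10.5% and 3.28% of all tested genes. Among the 17 were Arid5b, Kmt2e, Ep300, Ncor1, Crebbp, Ash1l, Setd5, Nsd1, Setd2, Tet2, Kmt2a, Chd9, Smarcc1, Atrx and Chd1. The count that fell was 9 without control 1, 5 without control 2, 36 without chemokine 1 and 14 without chemokine 2. Over all 2956 genes the same fits gave 183, 146, 708 and 309 falls, against 310 with all libraries, while 1 member, Phf5a, rose past this fold without chemokine 1. Arid5b, Kmt2e, Ep300, Ncor1 and Ash1l were past it in all 4 of these fits.

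**Figure D1:**
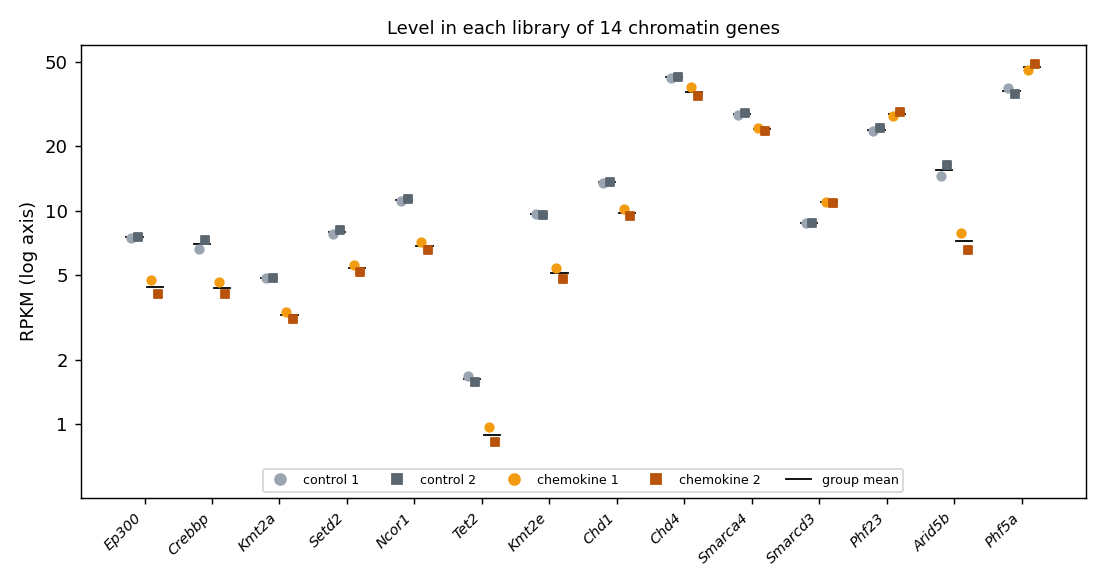
RPKM on a log axis in each of the 4 libraries for 14 chromatin genes; circles and squares are single libraries and black bars are group means (n = 2). Kmt2e sits at 9.69 and 9.51 RPKM in control cells and at 5.41 and 4.78 RPKM after exposure, and Smarcd3, Phf23 and Phf5a are the genes shown whose chemokine libraries lie above the controls.

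Levels differed widely between members. On the length-scaled RPKM, the mean of the control libraries ran from 1.498 for Chd6, a remodeller of the Chd family, to 42.2 for Chd4, the ATPase of the NuRD complex, with a median of 7.45 over the members and 14.8 over all listed genes. Phf5a at 36.4 and Smarca4 at 28.5 were also near the high end. The low end was held by Chd6 with Kmt2c at 1.57 and Tet2 at 1.63, and Tet2 fell under 1 RPKM in both chemokine libraries. For 18 members the implied gene length equals the annotated exon length, so whole reads are known. Among these, Smarca4 had the most, 5806 and 6877 control reads against 4527 and 5205 after exposure, and Tet2 had the fewest in the chemokine libraries, 904 and 978 control reads against 466 and 469.

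The promoters of 3 members are printed to show the sequence around an annotated start of transcription. Arid5b had the largest fall of any member, Ep300 the largest among writers, and Smarcd3 is the remodeller that rose. The sequences run 5′ to 3′ on the gene's strand, from 250 bases before to 50 bases after an annotated start, and are from RefSeq on GRCm38.p6. Capitals mark CG dinucleotides. The Ep300 and Smarcd3 windows lie inside their genes, whose annotated 5′ ends are bases 81585351 and 24624411. Use of the printed starts in these cells was not tested.
Arid5b, chr10:68278677-68278976, minus strand: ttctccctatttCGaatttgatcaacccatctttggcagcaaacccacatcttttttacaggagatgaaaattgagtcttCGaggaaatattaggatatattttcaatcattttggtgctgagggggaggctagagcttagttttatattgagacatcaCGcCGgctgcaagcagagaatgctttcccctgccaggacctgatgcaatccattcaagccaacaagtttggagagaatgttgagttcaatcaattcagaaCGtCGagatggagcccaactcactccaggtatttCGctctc
Ep300, chr15:81585964-81586263, plus strand: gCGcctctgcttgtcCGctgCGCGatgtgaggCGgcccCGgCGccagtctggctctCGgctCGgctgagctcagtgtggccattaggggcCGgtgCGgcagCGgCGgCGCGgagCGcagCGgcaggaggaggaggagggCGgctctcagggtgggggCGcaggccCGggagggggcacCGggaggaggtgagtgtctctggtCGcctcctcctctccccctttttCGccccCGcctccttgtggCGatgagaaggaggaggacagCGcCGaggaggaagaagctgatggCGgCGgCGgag
Smarcd3, chr5:24601953-24602252, minus strand: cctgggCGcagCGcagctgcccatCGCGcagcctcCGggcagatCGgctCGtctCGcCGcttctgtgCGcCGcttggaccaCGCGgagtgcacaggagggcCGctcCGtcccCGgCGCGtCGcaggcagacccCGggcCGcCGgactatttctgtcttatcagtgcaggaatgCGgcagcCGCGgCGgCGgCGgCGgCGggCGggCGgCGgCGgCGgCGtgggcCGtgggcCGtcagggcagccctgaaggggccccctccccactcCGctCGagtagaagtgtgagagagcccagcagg

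The Arid5b promoter holds 7 CG dinucleotides, that of Ep300 30 and that of Smarcd3 40. For 38 of the 55 members a promoter was found by symbol, 44 in all because some genes have several starts. The median was 28.5 CG dinucleotides in members, 22 in 2735 promoters of the other listed genes and 7 in all 32851 promoters. A ratio of observed to expected CG of at least 0.6 was met by 81.8% of members' promoters, 74.3% of those of the other listed genes and 35.8% of all. The letters GGGCGG, the core of a site for Sp factors, searched on both strands, stood in 79.5% of members' promoters, 64.6% of those of other listed genes and 35.7% of all. TATAAA, searched likewise, was found in 2 of the 44, against 7.42% of those of other listed genes and 13.6% of all. The AP-1 letters TGANTCA were found in 1 of the 44, against 5.37% and 7.81%, and the CREB letters TGACGTCA in 2, against 3.03% and 1.79%. The ETS letters CCGGAAGT were in none (0 of 44), against 8.30% of those of other listed genes and 3.89% of all. All 4 promoters found for Smarcd3 and Phf23, which rose, hold GGGCGG, as do 77.5% of the 40 found for members that fell.

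**Figure D2:**
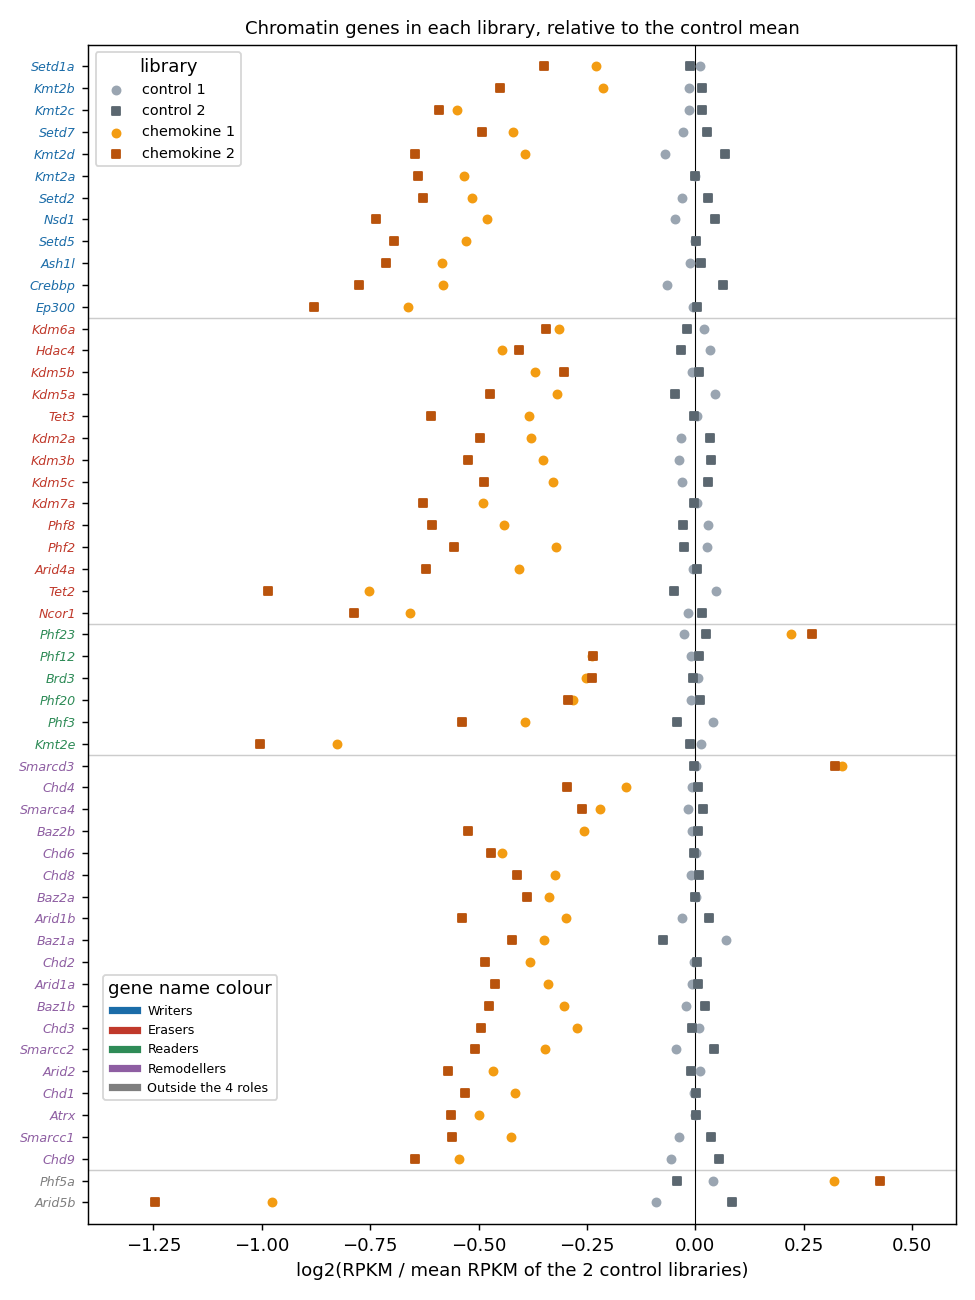
Each row is one of 53 members, grouped by role, and each point is 1 library, placed at log2 of its RPKM over the mean RPKM of the 2 control libraries. The control libraries lie close to 0, both chemokine libraries lie to the left of them in 50 of the members shown and to the right in 3, and chemokine 2 lies left of chemokine 1 in 47 of the 53.

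The libraries of a group also differed in a common direction. Chemokine 2 was lower than chemokine 1 in 49 of the 55 members, among them all 12 writers and all 19 remodellers, against 58.1% of all listed genes. On the log2(RPKM + 1) scale the median difference of chemokine 2 from chemokine 1 was -0.11 in members and -0.02 in the other listed genes. Control 2 was lower than control 1 in 19 of the 55, with a median difference of 0.01. Without chemokine 2 the median log2 fold change of the members was -0.31, and without chemokine 1 it was -0.44. All 52 falls and all 3 rises kept their direction with any 1 of the 4 libraries left out. This holds for every listed gene, since the groups do not overlap in any (100%).

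Most members are long genes. The median length of all annotated exons together was 10754 bases in members and 5606 bases in the other listed genes, and the median coding length was 5346 against 1581 bases. Across the 2898 other tested genes with an annotated length, log2 fold change fell with exon length (Spearman's rho -0.72), a correlation over genes that share the same 4 libraries. Across the 55 members rho was -0.32, and -0.19 over the 52 that fell. With the ratio of mean RPKM in place of the log2(RPKM + 1) difference it was -0.52, -0.43 and, in the other genes, -0.73. In other listed genes the difference of chemokine 2 from chemokine 1, within one group, also followed exon length, with a rho of -0.50, while that of control 2 from control 1 had a rho of 0.13. In the members these were -0.048 and 0.12.

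Set beside genes of like length, members differed less from the rest. Of 52 members with at least 5000 bases of exon, 51 were lower in the chemokine libraries, as were 90.7% of the 1582 other listed genes of that length. Between 10000 and 15000 bases all 20 members and 97.1% of 378 other genes were lower, with median log2 fold changes of -0.40 and -0.33. At 15000 bases or more all 14 members and 97.4% of 196 other genes were lower, with medians of -0.37 and -0.36. Between 5000 and 10000 bases, 17 of 18 members and 87.0% of 1008 other genes were lower, with medians of -0.36 and -0.29. The 3 members that rose measure 2166 bases (Phf5a), 3273 bases (Phf23) and 5120 bases (Smarcd3), and the shortest member that fell was Phf12 at 4909 bases.

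**Figure D3:**
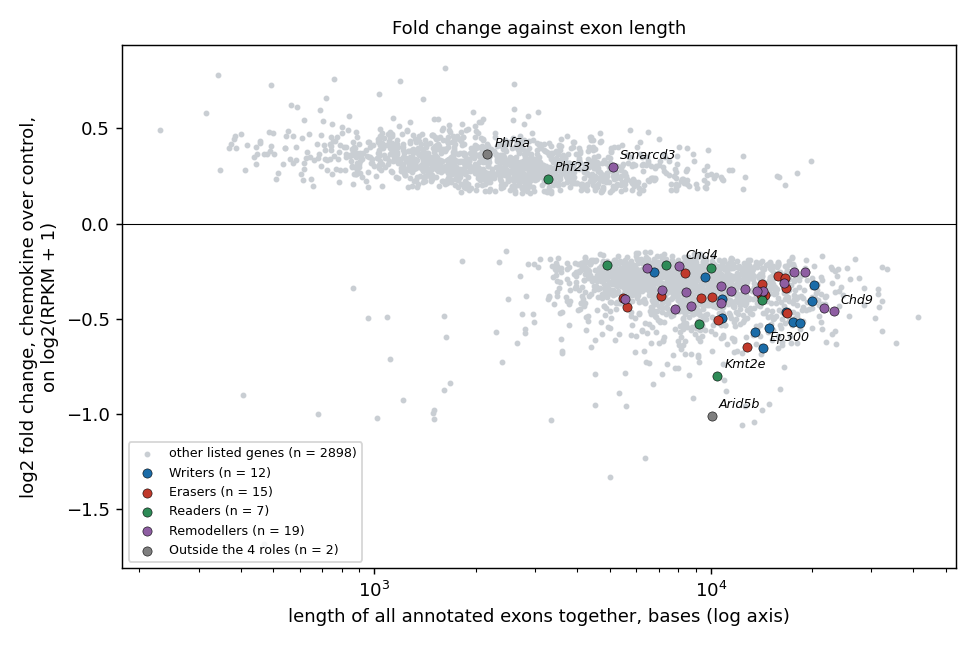
Limma's log2 fold change on the log2(RPKM + 1) scale against the length of all annotated exons together on a log axis; grey points are 2898 other listed genes and coloured points are the 55 members by role. Short listed genes lie mostly above 0 and long ones below it, and 51 of the 52 members of 5000 bases or more lie below 0 with Smarcd3 above.

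The fit was therefore repeated with the trend of length and GC content removed. In each library the deviation of every listed gene from its mean over the 4 libraries was fitted by natural splines of log2 exon length and GC percent and subtracted, which also centres all listed genes near 0. Of the 55 members, 17 then fell and 1, Smarcd3, rose, while 37 did not pass, against 20.2% lower and 19.6% higher among all genes in that fit. The median log2 fold change of the members became -0.054, with 36 members below 0 and 19 above. Median-of-ratios scaling of the libraries moved the median of all tested genes from -0.23 to -0.015. Under this scaling 38 members fell and 3 rose, with 27.3% of all genes lower and 42.8% higher. The median of the members was -0.18, and Chd4 turned to 0.0043 without passing. The divisors were set by the listed genes alone, a selected list, while the method takes most genes as unchanged. Not passing under this scaling thus does not show that a gene was unchanged. Whether length acted through the RNA, the libraries or the cells was not tested.

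**Figure D4:**
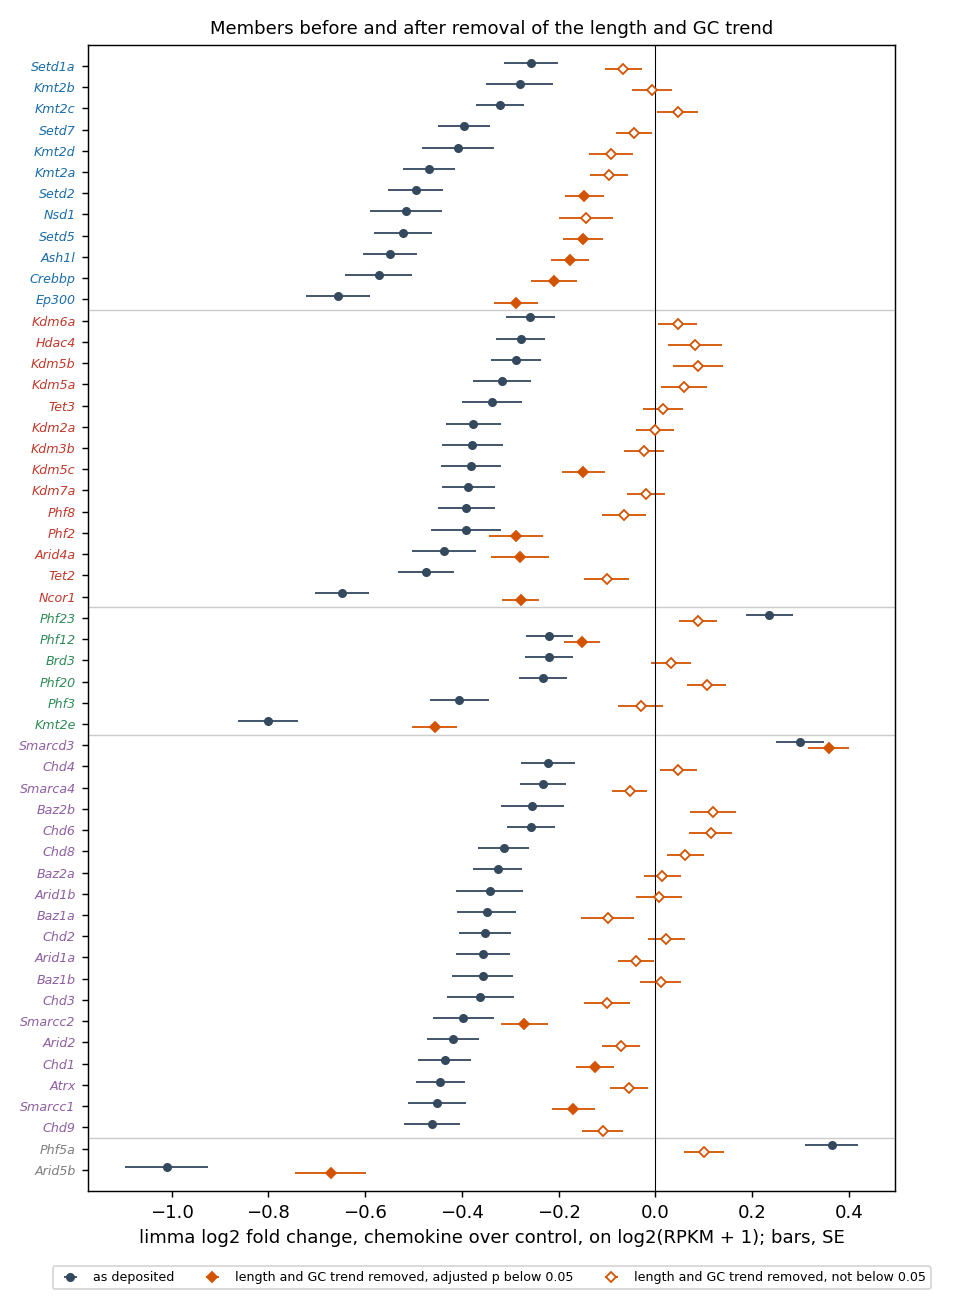
Limma's log2 fold change of 53 members with its SE as a bar, as deposited (dark circles) and with the length and GC trend removed (orange diamonds, filled where the adjusted p is below 0.05). The filled diamonds mark 15 members that remain below 0 and Smarcd3 above it.

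All 12 writers fell, with log2 fold changes from -0.66 to -0.26 and a median of -0.48. The median exon length of the writers was 14555.5 bases. Of all tested genes 57.2% fell, and of 378 other listed genes between 10000 and 15000 bases 97.1% were lower. A fold of 1.2 was passed by 7 of the 12 writers, against 10.5% of all tested genes falling past it. With the length and GC trend removed, 5 of the 12 passed, all lower, against 20.2% lower among all genes in that fit. The median of the writers was then -0.12. Ep300, which encodes the acetyltransferase p300, a coactivator at enhancers, measured 7.48 and 7.53 RPKM in control cells and 4.74 and 4.08 RPKM after exposure. Its log2 fold change was -0.66 ± 0.07 (SE, adjusted p = 0.000189 by limma), and -0.29 ± 0.05 with the trend removed. Crebbp, its close relative CBP, measured 6.64 and 7.27 against 4.65 and 4.06 RPKM, a log2 fold change of -0.57 ± 0.07 (adjusted p = 0.000236). Values of the groups do not overlap in either gene, as in all 2979 listed genes (100%).

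Ash1l, Setd2, Nsd1 and Setd5, all grouped here as writers, fell alongside. Ash1l, a methyltransferase that opposes Polycomb silencing, measured 6.87 and 6.99 against 4.62 and 4.23 RPKM (log2 fold change -0.55 ± 0.06, SE). Setd2, which methylates histone H3 along the bodies of transcribed genes, measured 7.80 and 8.13 against 5.57 and 5.15 RPKM (-0.50 ± 0.06). Nsd1, of the same class of methyltransferase, measured 6.81 and 7.26 against 5.04 and 4.22 RPKM (-0.52 ± 0.07). Setd5, a SET-domain protein found with the NCoR and Hdac3 corepressor complex, measured 7.19 and 7.20 against 4.99 and 4.44 RPKM (-0.52 ± 0.06). With the length and GC trend removed Ash1l, Setd2 and Setd5 passed at -0.18, -0.15 and -0.15, and Nsd1 at -0.14 did not (limma adjusted p = 0.0857).

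The 4 listed genes of the mixed lineage leukaemia family, which methylate histone H3 at promoters and enhancers, all fell, and with the length and GC trend removed none passed and Kmt2c turned to 0.046. Kmt2a measured 4.85 RPKM in both control libraries and 3.35 and 3.11 RPKM after exposure, on 2574 and 2979 reads against 1596 and 1757 (log2 fold change -0.47 ± 0.05, SE). Kmt2d, which marks enhancers, measured 4.31 and 4.75 against 3.45 and 2.89 RPKM (-0.41 ± 0.07). The family's other members, named here after their values were seen, were Kmt2c at -0.32 ± 0.05 and Kmt2b at -0.28 ± 0.07. The ratios of mean RPKM were 0.666 for Kmt2a, 0.674 for Kmt2c, 0.701 for Kmt2d and 0.797 for Kmt2b. For Kmt2c, at 1.57 RPKM in control cells, the log2 fold change understates the ratio, since 1 is added before the logarithm. The remaining writers, also named after their values were seen, were Setd7, which methylates histones and other proteins (-0.40 ± 0.05), and Setd1a, of the Set1 complex (-0.26 ± 0.06). Setd1a shares 51.8% of its exon bases with genes on its own strand, so its reads are uncertain.

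All 15 erasers and their corepressors fell, with log2 fold changes from -0.65 to -0.26 and a median of -0.38. Their median exon length was 12811 bases. Of all tested genes 57.2% fell, and of 378 other listed genes between 10000 and 15000 bases 97.1% were lower. A fold of 1.2 was passed by 3 of the 15, against 10.5% of all tested genes falling past it. With the length and GC trend removed, 5 of the 15 passed, all lower, against 20.2% lower among all genes in that fit. The median of the erasers was then -0.024. Ncor1 encodes the corepressor NCoR, which brings Hdac3 to nuclear receptors. Ncor1 measured 11.1 and 11.4 RPKM in control cells and 7.13 and 6.53 RPKM after exposure, a log2 fold change of -0.65 ± 0.06 (SE, adjusted p = 0.000142 by limma). The gene also passed with the trend removed, at -0.28 ± 0.04.

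Tet2 and Tet3, which oxidise methylcytosine in DNA, were expressed at a low level. Tet2 measured 1.68 and 1.57 against 0.966 and 0.821 RPKM, the lowest ratio among erasers at 0.549. Its log2 fold change of -0.47 ± 0.06 (SE) understates this ratio, since 1 is added before the logarithm. Tet3, named after its values were seen, measured 2.57 and 2.56 against 1.97 and 1.68 RPKM (-0.34 ± 0.06). Tet3 then stood at 0.016, and neither passed once the length and GC trend was removed (limma adjusted p = 0.133 for Tet2 and 0.782 for Tet3).

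The histone demethylases among the members all fell, with ratios of mean RPKM from 0.679 to 0.796 in the Kdm genes. The 7 listed Kdm genes had log2 fold changes from -0.39 to -0.26 with a median of -0.38, none passed a fold of 1.2, and 1, Kdm5c, passed once the length and GC trend was removed. Kdm5c, an X-linked eraser of promoter methylation on histone H3, measured 16.5 and 17.2 against 13.4 and 12.01 RPKM (log2 fold change -0.38 ± 0.06, SE). Kdm7a, which removes repressive methyl marks, measured 2.73 and 2.72 against 1.94 and 1.76 RPKM (-0.39 ± 0.05). Phf8 and Phf2 are demethylases of the same subfamily as Kdm7a. Phf8 measured 3.60 and 3.46 against 2.60 and 2.32 RPKM (-0.39 ± 0.06), and Phf2 measured 10.04 and 9.67 against 7.90 and 6.70 RPKM (-0.39 ± 0.07). With the trend removed Phf2 passed at -0.29 ± 0.06 and Phf8 (-0.065 ± 0.05) and Kdm7a (-0.019 ± 0.04) did not. The other Kdm genes, named after their values were seen, were Kdm3b and Kdm2a (both -0.38 ± 0.06), Kdm5a (-0.32 ± 0.06), Kdm5b (-0.29 ± 0.05) and Kdm6a (-0.26 ± 0.05). Kdm5a, Kdm5b and Kdm6a turned to 0.059, 0.088 and 0.046 without passing once the trend was removed.

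Deacetylase genes were few on the list. Hdac4, a class II deacetylase that shuttles between nucleus and cytoplasm, was the only Hdac gene there and was named after its values were seen. It measured 2.25 and 2.15 against 1.62 and 1.66 RPKM (log2 fold change -0.28 ± 0.05, SE), and 22.4% of its exon bases lie antisense to another annotated gene, as do 24.6% of those of Kdm3b. Hdac4 turned to 0.082 without passing once the trend was removed. Arid4a, a subunit of the Sin3 deacetylase complex, measured 6.84 and 6.88 against 5.18 and 4.46 RPKM (-0.44 ± 0.07), and passed with the trend removed (-0.28 ± 0.06).

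Of the 7 readers, 6 fell and 1 rose, against 57.2% lower and 42.8% higher among all tested genes. The median log2 fold change of the readers was -0.23, which became -0.030 once the trend in length and GC content was removed. Kmt2e is named as a methyltransferase but is not known to methylate histones, and binds methylated histone H3 through its PHD finger. It had the largest fall of any member with one of the 4 roles, from 9.69 and 9.51 RPKM to 5.41 and 4.78, on 3223 and 3663 reads against 1616 and 1691. Its log2 fold change was -0.80 ± 0.06 (SE, adjusted p = 0.000137 by limma), and -0.46 ± 0.05 with the length and GC trend removed. Kmt2e shares 9.31% of its exon bases with Srpk2 on the other strand.

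Brd3, a BET reader that binds acetylated histones, measured 9.70 and 9.63 against 8.12 and 8.20 RPKM (log2 fold change -0.22 ± 0.05, SE). It turned to 0.033 ± 0.04 without passing once the trend was removed, and did not pass under median-of-ratios scaling either (-0.011 ± 0.04).

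Among the PHD finger readers, Phf3, which binds RNA polymerase II, measured 8.18 and 7.72 against 6.05 and 5.48 RPKM (log2 fold change -0.40 ± 0.06, SE). Phf20, of a histone acetyltransferase complex, measured 4.61 and 4.67 against 3.82 and 3.78 RPKM (-0.23 ± 0.05), and 12.7% of its 31-base words also occur in another gene, most of them in the pseudogene Phf20-ps. Phf12, of the Sin3 complex, measured 12.9 and 13.1 against 11.0 RPKM in both chemokine libraries (-0.22 ± 0.05). Of its exon bases, 10.8% lie antisense to another annotated gene. Phf23, which binds methylated histone H3, was the reader that rose, from 23.5 and 24.4 to 27.9 and 28.9 RPKM (0.24 ± 0.05, adjusted p = 0.00167 by limma). With the trend removed Phf12 passed at -0.15 ± 0.04, while Phf3 (-0.030), Phf23 (0.088) and Phf20, turned to 0.11, did not. Phf20 and Phf12 no longer passed under median-of-ratios scaling, at -0.045 and -0.0050.

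Of the 19 remodellers, 18 fell and 1 rose, against 57.2% lower and 42.8% higher among all tested genes. The median log2 fold change of the remodellers was -0.35. Of those that fell 4 passed a fold of 1.2, against 10.5% of all tested genes falling past it. With the length and GC trend removed, 3 of the 19 passed lower and 1 higher, against 20.2% and 19.6% of all genes in that fit. The median of the remodellers was then -0.040. The 7 listed Chd genes all fell, with log2 fold changes from -0.46 to -0.22. Chd9, a large member of the family, measured 4.13 and 4.46 against 2.94 and 2.74 RPKM (-0.46 ± 0.06, SE). Chd1, which binds methylated histone H3 at transcribed genes, measured 13.56 and 13.60 against 10.2 and 9.40 RPKM (-0.44 ± 0.05) and was the one Chd gene to pass with the trend removed (-0.12 ± 0.04, limma adjusted p = 0.0464). Chd3 and Chd4 are alternative ATPases of the NuRD complex. Chd3 measured 18.7 and 18.5 against 15.4 and 13.2 RPKM (-0.36 ± 0.07), and Chd4, named after its values were seen, measured 42.0 and 42.4 against 37.8 and 34.4 RPKM (-0.22 ± 0.06), or 0.047 with the trend removed. Chd2 (-0.35), Chd8 (-0.31) and Chd6 (-0.26) were likewise named after their values were seen. Their ratios of mean RPKM were 0.741, 0.775 and 0.728, and the added 1 makes the fall of Chd6 look smaller. Once the trend was removed they turned to 0.023, 0.062 and 0.11 without passing. Chd2 shares 18.4% of its exon bases with genes on its strand.

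Among the members, the BAF complex, the mammalian SWI/SNF remodeller, was represented by 7 genes, of which 6 fell and 1 rose. Smarcc1 and Smarcc2 encode the scaffold subunits of the complex. Smarcc1 measured 12.6 and 13.3 against 9.64 and 8.78 RPKM (log2 fold change -0.45 ± 0.06, SE), and Smarcc2 measured 15.1 and 16.02 against 12.2 and 10.9 RPKM (-0.40 ± 0.06). Both passed with the trend removed, at -0.17 ± 0.04 and -0.27 ± 0.05. Arid2, which defines the PBAF form, measured 5.04 and 4.97 against 3.62 and 3.37 RPKM (-0.42 ± 0.05). Arid1a and Arid1b, alternative subunits of the canonical form, and the ATPase gene Smarca4 were named after their values were seen and had log2 fold changes of -0.36 ± 0.06, -0.34 ± 0.07 and -0.23 ± 0.05. None of these 4 passed with the trend removed, where Arid1b turned to 0.0073, and Smarca4 and Arid1b did not pass under median-of-ratios scaling either.

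Among the 7 members of the BAF complex, Smarcd3 went the other way. It encodes a variant accessory subunit of BAF known from heart and skeletal muscle, and measured 8.74 and 8.71 RPKM in control cells and 11.03 and 10.9 RPKM after exposure. Its log2 fold change was 0.30 ± 0.05 (SE, adjusted p = 0.000616 by limma) and 0.36 ± 0.04 with the trend removed. In the reference annotation on GRCm38 it spans bases 24590818 to 24624411 of chromosome 5, minus strand, and 48.2% of its exon bases lie antisense to Chpf2 and a microRNA gene. The strand setting of the counting is not given in the sources used here, so reads of Smarcd3 and Chpf2 cannot be told apart.

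Atrx, an X-linked remodeller that deposits a histone H3 variant at heterochromatin, measured 6.09 and 6.11 against 4.31 and 4.13 RPKM (log2 fold change -0.44 ± 0.05, SE). The 4 Baz genes, which encode partners of the ISWI ATPases, had log2 fold changes from -0.36 to -0.25. Baz1b, of the WICH complex, measured 12.8 and 13.2 against 10.5 and 9.32 RPKM (-0.36 ± 0.06). Atrx did not pass (-0.054 ± 0.04) with the trend removed, and Baz1b turned to 0.011 ± 0.04 without passing. Baz1a (-0.35), Baz2a (-0.33) and Baz2b (-0.25), named after their values were seen, did not pass either, and Baz2a and Baz2b turned to 0.015 and 0.12.

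The remaining pair matched the symbol rule but has none of the 4 roles. Arid5b, a DNA-binding factor of fat cells and lymphocytes that works with Phf2, was named after its values were seen. It fell from 14.5 and 16.4 RPKM to 7.86 and 6.52 (log2 fold change -1.01 ± 0.09, SE; adjusted p = 0.000142 by limma), and with the length and GC trend removed to -0.67 ± 0.07. Its gene spans bases 68092520 to 68278740 of chromosome 10, minus strand, and shares no exon base with another annotated gene. Phf5a encodes a small subunit of the spliceosome and not a chromatin protein. It rose from 37.5 and 35.3 to 45.4 and 48.9 RPKM (0.36 ± 0.06, adjusted p = 0.000483) and did not pass with the trend removed (0.10 ± 0.04, adjusted p = 0.0908).

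Other genes of the same pathways, taken from a list of 235 symbols that includes older names of some, are in the table with 71 entries. Of the 70 tested, 56 fell and 14 rose, against 57.2% lower and 42.8% higher among all tested genes. Their median log2 fold change was -0.31. The median exon length of the 71 entries was 8846 bases. Of 1008 other listed genes between 5000 and 10000 bases, 87.0% were lower. With the trend removed 18 fell and 10 rose, against 20.2% lower and 19.6% higher among all genes in that fit. Of those 10, 5 had fallen in the deposited values. These 5, named after their values were seen, were the readers Atad2 (0.13), Brwd1 (0.14) and Mbtd1 (0.19), the remodeller gene Rsf1 (0.15) and the writer Whsc1 (0.15). Of 22 other writers and their partners 20 fell, led by Kat6a, an acetyltransferase (-0.69 ± 0.06, SE), and Hcfc1, a cofactor of the Set1 complex (-0.62 ± 0.06), while Hat1, which acetylates new histones, and Rbbp7, a histone chaperone, rose (0.29 ± 0.06 and 0.16 ± 0.05). Of 14 other erasers and partners 12 fell, led by Tbl1x, of the NCoR complex (-0.51 ± 0.05), and Jmjd1c, of the demethylase family (-0.50 ± 0.05), and the Sin3 subunits Sap30 and Sap18 rose (0.34 ± 0.06 and 0.22 ± 0.05). Rbbp7 no longer passed without control 1 (limma adjusted p = 0.0934) or without control 2 (0.0728).

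All 13 other readers tested fell, led by Bptf, the reader subunit of the NURF remodeller, from 8.15 and 8.96 to 5.13 and 4.75 RPKM (log2 fold change -0.69 ± 0.06, SE), and Atad2b, a bromodomain ATPase (-0.53 ± 0.07). The 14 listed entries of this role had a median exon length of 13601.5 bases. Of 378 listed genes between 10000 and 15000 bases that are not members, 97.1% were lower. After removal of the trend 3 of the 13 readers passed lower and 3 higher, against 20.2% and 19.6% of all genes in that fit. The median of the 13 was then 0.014. Of 14 other remodeller entries 11 fell, led by 2 entries called Srcap, a remodeller that exchanges a histone H2A variant (-0.65 ± 0.08 and -0.60 ± 0.08). These entries share 61.7% and 86.3% of their exon bases with genes on their own strand, so they are not independent. Bcl7c and Mcrs1, subunits of BAF and of the INO80 complex, rose (0.30 ± 0.05 and 0.29 ± 0.05). All 7 listed genes of histone variants rose, led by H2afj (0.45 ± 0.06) and H2afv (0.39 ± 0.10), with a median log2 fold change of 0.25. Their median exon length was 1831 bases. Of listed genes that are not members, 3.11% of 707 below 2500 bases were lower, with a median log2 fold change of 0.33. Between 2500 and 5000 bases 29.7% of 609 were lower, with a median of 0.25. With the trend removed 2 of the 7 histone variant genes passed, while H2afj (0.12) and H2afv (0.071) did not. Tbl1x, Bptf, Kat6a, Hcfc1, Mcrs1, Bcl7c, Sap18 and both Srcap entries passed in the same direction with the trend removed, Jmjd1c, Atad2b, Hat1 and Rbbp7 did not, and Sap30 turned to -0.030 without passing.

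The labelled cell type and other cells in the preparation were checked on markers in the same table. Of 10 fibroblast markers 5 are listed (Col1a1, Col1a2, Col3a1, Dcn and Vim), with a summed level of 1483 to 1502 RPKM in control cells and 1699.8 to 1722 RPKM after exposure, and all 5 were higher after exposure. Of 10 endothelial markers 2 are listed, both higher, with sums of 3.18 to 3.26 and 5.43 to 6.16 RPKM. Of 10 macrophage markers 3 are listed, 1 higher and 2 lower, with sums of 25.9 to 26.2 and 22.9 RPKM in both chemokine libraries. Of 10 epithelial markers 3 are listed, Krt18 and Krt19 higher and Sftpb, too low to be tested, lower (1.18 and 1.24 against 0.391 and 0.331 RPKM), with sums of 14.1 to 14.3 and 17.6 to 18.5 RPKM. Of 7 smooth muscle and pericyte markers 2 are listed, 1 higher and 1 lower, with sums of 137.7 to 141.8 and 151 to 157 RPKM. None of the markers of mesothelium, or of neutrophils and lymphocytes, is in the table, and no listed marker is at 0. The part of these shifts in the members' values was not tested.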

How the data were processed

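RNA was taken from freshly isolated mouse lung fibroblasts, in 2 control and 2 chemokine-treated libraries. TopHat2 2.0.7, the build GRCm38 (mm10) of the mouse and DESeq2 are named, with no role, by the submitters' processing notes. The sources used here do not give the counter, annotation, strand setting or rule of selection. The deposited table gives 1 RPKM value per library, a unit worked out from the values: with library totals of 28603764 to 36863654 reads and annotated exon lengths, 1176 genes gave whole reads in all 4 libraries, within a relative 1e-12. The authors also deposited 1 fold ratio per gene, which was not used.

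Values were tested as log2(RPKM + 1) with limma 3.58.1 in R 4.3.3, with a mean-variance trend, over the 2956 genes whose mean reached 1 RPKM, with Benjamini-Hochberg adjustment over all of them and a threshold of 0.05. All tests are two-sided, n = 2 libraries per group, and errors on log2 fold changes are SE. The script was tested on simulated data. An exact permutation of 2 against 2 libraries cannot reach this threshold. Lengths, positions and shared exon bases come from GENCODE M21, and GC content from each gene's longest transcript. Libraries of a pair differed by more than sampling noise (chi-square per gene 3.65 in control, 11.1 in chemokine, where noise gives about 1), so neither pair was counted as 1, though this does not show separate cultures.

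Members and lists were chosen with earlier results of these data known. Genes named by rule are the 8 largest changes in each role, all members above a fold of 1, and the largest 2 rises and 2 falls in each role of the other chromatin genes; some of these are not reported here. Alternatives changed the pseudocount, the filter, the scaling, the variance model, the length and GC trend, the replicate block and the libraries included.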

Additional observations from a re-analysis of the deposited data

How the results depend on the processing

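In every fit of 55 members and 4 libraries without the length and GC trend removed or median-of-ratios scaling, 52 fell and 3 rose. Each direction held with a library left out, as it must where the groups do not overlap (100% of listed genes). With the trend removed 17 fell and 1 rose, and 16 and 1 with the replicate block as well, where Chd1 was lost. At a mean of at least 10 RPKM, where 14 members were tested, 12 fell, and over all 1789 genes 691 fell and 1098 rose, with a median of 0.24. Past a fold of 1.2, falls numbered 2 with the trend removed, with or without the block, 2 at 10 RPKM, and 4 under median-of-ratios scaling with 3 rises; over all genes falls and rises numbered 62 and 90 with the trend removed (75 and 100 with the block), 86 and 52 at 10 RPKM, and 102 and 1231 under scaling. For the members, leaving out libraries gave 5 to 36 falls and 0 to 1 rises.

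The median log2 fold change of the members was -0.43 at a pseudocount of 0.1, -0.18 under scaling, -0.054 with the trend removed (and with the block), and -0.44 to -0.31 with a library left out. For writers it was -0.29 under scaling and -0.12 with the trend removed, for erasers -0.18 and -0.024, for readers -0.045 and -0.030, and for remodellers -0.14 and -0.040. Readers gave -0.28 and -0.26 at pseudocounts of 0.1 and 0.5, -0.22 at 10 RPKM and -0.24 to -0.22 with a library left out, and remodellers -0.40 at 0.1 and -0.41 to -0.30. Of the other chromatin genes 56 fell and 14 rose, and 15 fell at 10 RPKM, 30 under scaling and 18 with the trend removed. With the trend removed and the block, 18 fell and 9 rose. Over all genes falls numbered 1692, 691, 807 and 597 in these fits in turn, and with the block 544, with 543 rises. The cause of these shifts was not tested.

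Of 49 genes named by the rule, 4 turned with the trend removed, Baz1b to 0.011, Brd3 to 0.033, Phf20 to 0.11 and Sap30 to -0.030, with the same values under the block, and none of these 4 passed. Without the trend removed, the replicate block left 52 falls and 3 rises and changed no call of these genes. Same-numbered libraries share only a number: their deviations correlated at -0.157 across 2979 genes, and a crossed pairing, chosen after seeing the data, also gave 52 falls and 3 rises, and 20 falls past a fold of 1.2. Each group has only 2 libraries, depth as a limit was not tested, and genes outside the selected table cannot be described. With a library left out, the lone one of its group is assumed to vary like the other group.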
